A study of Mus musculus with 6 samples.

Results

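The immunity-related GTPase (IRG) genes examined here are Irgm1, Irgm2, Igtp, Iigp1, Gm12250, Gm4841, Gm4951 and F830016B08Rik. They were taken by symbol from the array annotation, including probe sets that carry several symbols. These 8 genes, of 23981 annotated ones, were measured by 9 of the 41345 probe sets of an Affymetrix Mouse Gene 2.0 ST array. The genes were put together with the icilin against vehicle values of these same arrays known, so their differences are given as a description and support no statement about the family.

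The arrays were made from splenic CD4+ T cells of wild-type C57BL/6 female mice aged about 8 weeks. The first group was 3 arrays of cells kept for 24 h with 100 µM icilin, a man-made cooling agent and agonist of the ion channels TRPM8 and TRPA1, dissolved in dimethyl sulfoxide (DMSO). The second was 3 arrays of cells kept for the same time with the DMSO vehicle. All cells had first been activated for 24 h with antibodies to CD3 and CD28, each at 10 µg/mL, so both groups are activated T cells and an unstimulated state is not part of the comparison. Both groups came from the same 3 mice, and a replicate number is not said to name a mouse.

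IRG proteins are large GTPases that mouse cells make in response to interferons, chiefly interferon gamma. They are best known for defence against microbes that live inside vacuoles, such as Toxoplasma. The effector proteins load onto the vacuole membrane and break it up, and need bound GTP to do so. The regulatory IRGM proteins sit on the cell's own membranes and hold the effectors in their inactive, GDP-bound form. In mouse CD4+ T cells, Irgm1 is known to protect activated cells from death that interferon gamma itself brings on. Irgm1, Irgm2 and Igtp (also called Irgm3) are the regulatory genes, and the other members carry the effector-type sequence. Of these, Iigp1 (Irga6) and Gm12250 (Irgb10) are well studied, whereas Gm4841, Gm4951 and F830016B08Rik are relatives of Iigp1 with less known of them.

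Promoter windows of 300 bases, from 250 before to 50 after the gene's start, are shown because interferon control of this family is known to act there. RefSeq sequences (GRCm38.p6) were matched for 4 of the 8 genes: Irgm1 at chr11:48871371-48871670 on the minus strand, and, on the plus strand, Irgm2 at chr11:58214727-58215026, Igtp at chr11:58199306-58199605 and Gm12250 at chr11:58183593-58183892. Each is printed 5′ to 3′ along its gene. Capitals mark matches to GAAA followed by any 2 bases and again GAAA, the core of the interferon-stimulated response element (ISRE), searched on both strands, and to TTCNNNGAA, the letters of a STAT-type element, which read alike on both strands.
Irgm1: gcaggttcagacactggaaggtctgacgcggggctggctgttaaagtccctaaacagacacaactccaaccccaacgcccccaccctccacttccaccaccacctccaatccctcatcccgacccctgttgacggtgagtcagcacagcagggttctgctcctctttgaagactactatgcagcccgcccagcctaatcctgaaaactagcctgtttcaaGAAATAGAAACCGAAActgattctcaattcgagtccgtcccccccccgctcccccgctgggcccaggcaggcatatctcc
Irgm2: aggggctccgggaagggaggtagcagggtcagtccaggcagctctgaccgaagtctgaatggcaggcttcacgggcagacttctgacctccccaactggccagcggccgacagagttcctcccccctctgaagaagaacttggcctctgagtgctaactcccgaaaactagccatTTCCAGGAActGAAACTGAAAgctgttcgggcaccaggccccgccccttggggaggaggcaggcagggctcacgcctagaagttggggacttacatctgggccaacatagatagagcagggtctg
Igtp: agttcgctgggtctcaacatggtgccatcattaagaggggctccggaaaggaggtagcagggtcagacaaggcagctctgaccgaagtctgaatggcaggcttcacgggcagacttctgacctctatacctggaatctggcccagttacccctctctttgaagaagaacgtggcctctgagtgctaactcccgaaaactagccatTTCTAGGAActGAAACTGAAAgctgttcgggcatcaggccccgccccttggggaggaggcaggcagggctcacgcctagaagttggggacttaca
Gm12250: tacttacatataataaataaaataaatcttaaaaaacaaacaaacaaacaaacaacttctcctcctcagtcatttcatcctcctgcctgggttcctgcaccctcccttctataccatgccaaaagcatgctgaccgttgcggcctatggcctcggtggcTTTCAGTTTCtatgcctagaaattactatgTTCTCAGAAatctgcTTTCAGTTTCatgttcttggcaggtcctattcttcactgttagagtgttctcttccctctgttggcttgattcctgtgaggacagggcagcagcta

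The ISRE core was present in all 4 of these chromosome 11 windows, against 3.44% of 32851 promoter windows of any chromosome in the RefSeq table. Some other interferon-induced genes shared it. Among genes with a window, 5 of 5 guanylate-binding proteins (of 11 listed) and 11 of 20 type I interferon targets held the core. So did 3 of 6 other listed IRG family genes, but only 3 of 13 other interferon gamma targets. Here a gene counts once if any of its windows matched, so these counts are not in the unit of the share over all windows. They also leave out chromosome 18, which the share over all windows includes. TTCNNNGAA was present in those of Irgm2, Igtp and Gm12250, against 8.3% of all windows, and both occurred together in 0.454% of all windows. In Irgm1 a pair of overlapping matches, GAAATAGAAA and GAAACCGAAA, began 30 and 24 bases before the gene's start. Gm12250 held the reverse-strand form TTTCAGTTTC at 91 and again at 46 bases before the start, with TTCTCAGAA between them at 61. In Irgm2 the elements TTCCAGGAA and GAAACTGAAA began 75 and 64 bases before the start, and in Igtp TTCTAGGAA and GAAACTGAAA began 45 and 34 bases before it. The windows of Irgm2 and Igtp, which are neighbouring genes, shared an identical run of 61 bases, and the longest run shared by any other pair of the 4 windows was 11 bases. These matches describe the letters in the windows and were not tested as binding sites.

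All 9 IRG probe sets were higher with icilin, by 0.49 to 1.24 on the log2 scale, with a median of 0.75 against 0.01 over all probe sets. In each of the 9 the lowest icilin array lay above the highest vehicle array, a pattern found in 10.8% of all probe sets. A probe set is called here when it met both limits that the study used, at least 1.5-fold and a false discovery rate under 0.1 (here limma with Benjamini-Hochberg adjustment over all probe sets). Of the 9 probe sets 7 were called, while over the whole array 0.866% were called in either direction and 0.237% were called higher. All 9 passed the adjusted p limit alone, as did 0.52% of all probe sets in the higher direction. Because the genes were gathered from this contrast, nothing is read from these shares. With the replicate number as a block, limma called 0 of the 9 probe sets (smallest adjusted p 0.142) and 0 over the whole array. Calls named in the text are from fits without that block. Whether more of the cells carried these transcripts or each cell carried more cannot be told apart in bulk RNA.

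The regulatory genes differed by 0.49 to 0.84. Irgm1, the regulator needed by activated CD4+ T cells, had log2 levels of 7.83, 7.6 and 7.78 in the icilin arrays and 6.91, 6.96 and 6.8 in the vehicle arrays. It was the regulatory gene with a call, with a difference of 0.84 ± 0.09 (SE, n = 3 each), or 1.8-fold. The smallest gap between the groups, between the lowest icilin and the highest vehicle array, was 0.64, several times the SD within either group (0.12 with icilin and 0.08 with vehicle).

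Irgm2, whose protein sits at the Golgi, had levels of 8.44, 8.26 and 8.28 with icilin and 7.86, 7.83 and 7.65 with vehicle. Its difference of 0.55 ± 0.09 is 1.46-fold, just short of the fold limit. Igtp, which encodes a regulator found on the endoplasmic reticulum and lipid droplets, had 10.81, 10.74 and 10.72 with icilin and 10.24, 10.26 and 10.3 with vehicle. Its arrays were the tightest of the regulatory genes, with an SD of 0.05 with icilin and 0.03 with vehicle, and its difference was 0.49 ± 0.07, or 1.4-fold. Irgm2 and Igtp passed the adjusted p limit without the fold limit, so that these are the members just outside the call and Gm12250, at 1.55-fold, is the one just inside it.

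The effector genes were all called. Iigp1, the prototype effector that coats the Toxoplasma vacuole, stood at 10.03, 10.08 and 9.98 with icilin and at 9.17, 9.19 and 9.04 with vehicle. The difference was 0.9 ± 0.08, or 1.86-fold, and the groups were 0.79 apart at their closest. Gm12250, an effector known to act on bacteria and to help inflammasome sensing in mouse macrophages, had levels of 9.94, 9.94 and 10.0 with icilin and 9.42, 9.27 and 9.28 with vehicle. That is a difference of 0.64 ± 0.07.

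The relatives of Iigp1 on its own chromosome were all higher with icilin. Gm4951 had levels of 9.11, 9.17 and 8.75 with icilin and 8.01, 7.65 and 7.67 with vehicle, a difference of 1.24 ± 0.15, or 2.36-fold. Its spread was also the widest of the 9 probe sets, with an SD of 0.23 in the icilin and 0.2 in the vehicle arrays, icilin replicate 3 being low and vehicle replicate 1 high for their groups. Gm4841 had 6.26, 6.22 and 6.3 with icilin and 5.37, 5.17 and 5.15 with vehicle, a difference of 1.03 ± 0.09, or 2.05-fold.

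A second probe set of Gm4841 also carries the symbol of BC023105, listed as a pseudogene in RefSeq, so that its signal cannot be given to 1 gene. It read 5.08, 5.17 and 5.2 with icilin and 4.43, 4.33 and 4.44 with vehicle, a difference of 0.75 ± 0.07. F830016B08Rik read 5.38, 5.45 and 5.35 with icilin and 4.68, 4.58 and 4.85 with vehicle, a difference of 0.68 ± 0.09. These were the dimmest members, at brightness percentiles 58.5 and 62.1 of all probe sets, while Igtp, Gm12250 and Iigp1 lay at 98.3, 96.0 and 95.8. Fold changes of dim probe sets are compressed by the array's background, so the sizes of bright and dim members cannot be set against each other directly. Close paralogs may also share probes, and how far this mixes Gm4841, Gm4951 and F830016B08Rik was not tested.

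**Figure D1:**
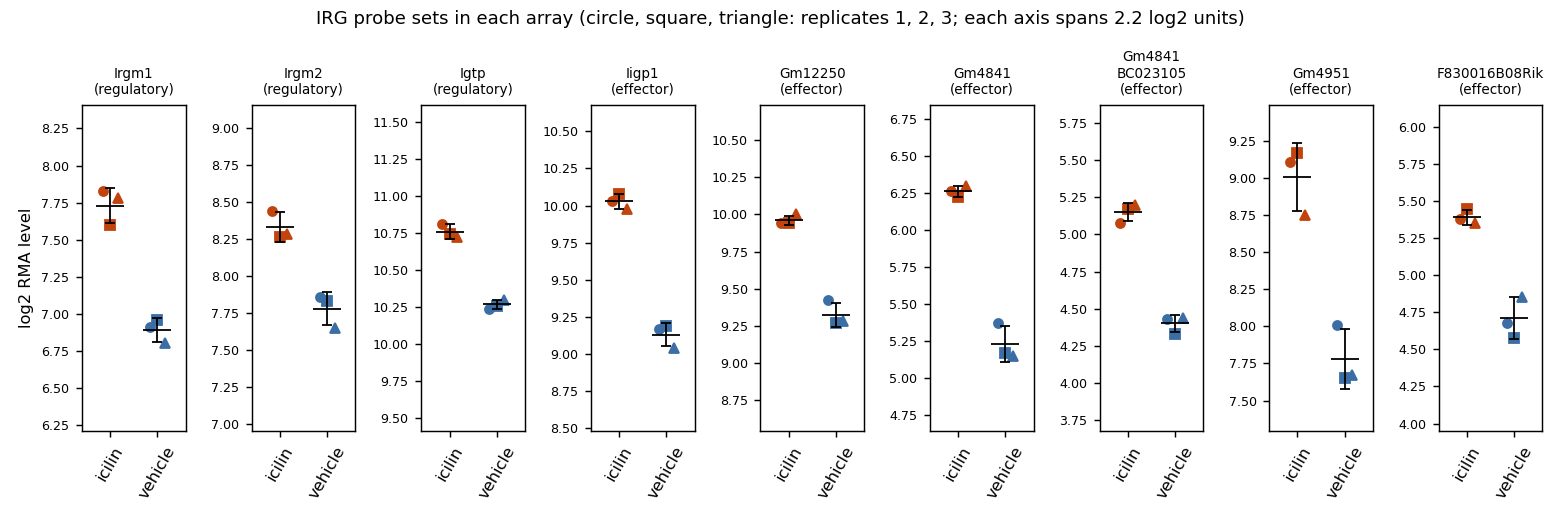
Log2 RMA level (vertical axis) of each IRG probe set in the 3 icilin (left, red) and 3 vehicle (right, blue) arrays, with the mean and SD in black. In every panel the icilin arrays lie above the vehicle arrays, with the widest spread in Gm4951.

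Averaged over its genes, the regulatory class differed by 0.63 (3 genes, median 0.55) and the effector class by 0.9 (5 genes, median 0.9). The difference between the classes was not tested, since both come from the contrast that chose the genes, and Irgm1 lies within the effector range of 0.64 to 1.24. The mean over the regulatory genes was 9.03, 8.86 and 8.93 in the icilin arrays and 8.33, 8.35 and 8.25 in the vehicle arrays. For the effector genes it was 8.14, 8.17 and 8.08 with icilin and 7.33, 7.17 and 7.2 with vehicle. In either class the arrays of a group lay closer to each other than to any array of the other group.

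Several calls ended when 1 array was left out. Without icilin replicate 1 limma called 3 of the 9 probe sets and 0.365% of all, without icilin replicate 2 it called 3 (0.273% of all), and without icilin replicate 3 it called 4 (0.404% of all). Leaving out vehicle replicate 1 left 6 calls (0.501% of all), vehicle replicate 2 left 2 (0.264% of all) and vehicle replicate 3 left 4 (0.397% of all). Iigp1 and the first Gm4841 probe set were called in all 6 of these fits and the second Gm4841 probe set in 4. The calls of the other genes mostly ended: Irgm1 and Gm4951 were each called in 2 of the 6 fits, and Gm12250 and F830016B08Rik in 1 each. Every difference of the 9 probe sets stayed above 0 in all fits run, between 0.46 and 1.37.

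The known family has further genes, which were described from a list of 8 symbols, 7 of them annotated on the array. Tgtp1 and Tgtp2 encode the near-identical effector Irgb6 and share both of their probe sets. The first read 7.35, 7.05 and 7.11 with icilin and 7.16, 6.89 and 6.57 with vehicle, with overlapping groups and a difference of 0.3 ± 0.17 (limma adjusted p = 0.559). The second read 7.21, 7.26 and 7.41 with icilin and 6.75, 6.79 and 6.91 with vehicle, a difference of 0.48 ± 0.09 (limma adjusted p = 0.095) below the fold limit.

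The other listed family genes had probe sets of their own in 4 cases. Of these 4, limma called 0, and 0 stood at an unadjusted p under 0.05 (4966 of all 41345 probe sets). The 4 were 9930111J21Rik2 (-0.01 ± 0.16), Gm5431 (-0.03 ± 0.17, dim at brightness percentile 12.2), Irgc1, known for expression in testis (-0.06 ± 0.11, limma adjusted p = 0.891), and Irgq, a divergent member (0.04 ± 0.1). A probe set shared by 9930111J21Rik1, 9930111J21Rik2 and Psme2 differed by -0.14 ± 0.14. The list thus held values near 0 as well as the intermediate values of Tgtp1 and Tgtp2. Gm12185, which RefSeq also lists as Irgb2b1, was not on the list and is given with its block below.

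**Figure D2:**
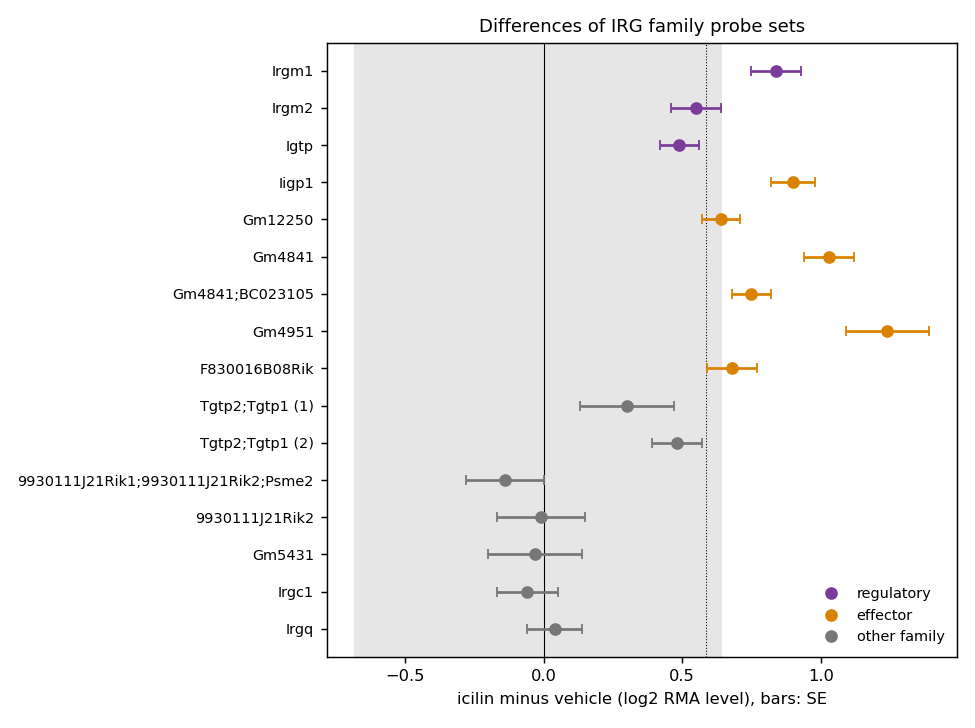
Icilin minus vehicle difference in log2 level with its SE (horizontal axis) for the 9 probe sets of the 8 IRG genes and the 7 probe sets of the other listed family genes. The grey band spans the 1st to 99th percentile of all probe sets (-0.68 to 0.64) and the dotted line marks 1.5-fold; effector probe sets lie at 0.64 to 1.24, regulatory ones at 0.49 to 0.84 and other family probe sets at -0.14 to 0.48.

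The genes lie in 3 blocks, a known feature of the family. On chromosome 11, Gm12250, Igtp and Irgm2 are direct neighbours among protein-coding genes, and Irgm1 heads a second block that also holds Gm5431, 9930111J21Rik1, 9930111J21Rik2, Tgtp1 and Tgtp2. The third block, on chromosome 18, runs through Gm4951, Gm4841, F830016B08Rik and Iigp1 with no other protein-coding gene between them. Taking the 3 nearest protein-coding genes with a probe set of their own on each side of each block, limma called 0 of 18. Before adjustment 3 of the 18 stood at p under 0.05 (4966 of all 41345 probe sets). The 18 differences ran from -0.47 to 0.18, all below the 0.49 of Igtp. Inside the Irgm1 block, Gm12185, which RefSeq also lists as Irgb2b1 and which was picked out after its value was seen, differed by 0.28 ± 0.08 (limma adjusted p = 0.257).

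**Figure D3:**
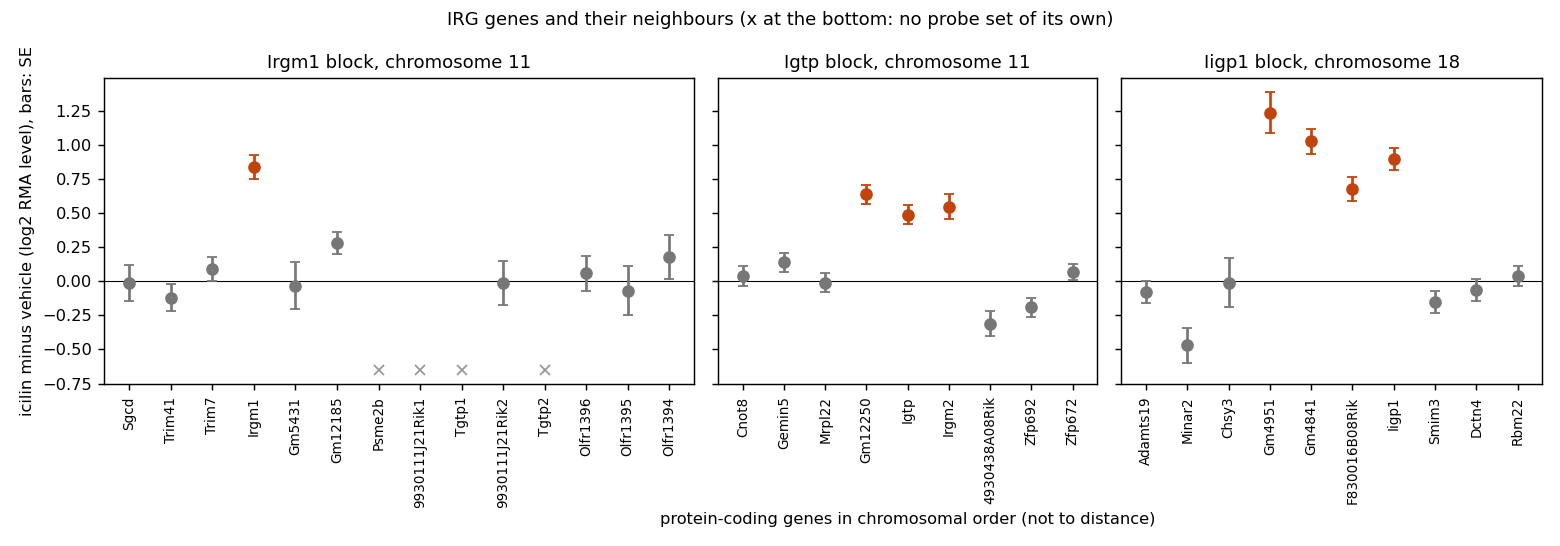
Icilin minus vehicle difference in log2 level with its SE (vertical axis) for protein-coding genes in chromosomal order through the 3 IRG blocks. The 8 IRG genes examined here are in red. All other genes, including further IRG family genes inside the Irgm1 block, are in grey. The 8 IRG genes stand at 0.49 to 1.24 and the 18 flanking genes at -0.47 to 0.18; crosses at the bottom mark genes without a probe set of their own.

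Upstream of the IRG genes, the interferon ligands and receptors had no call. Ifng, the gene of interferon gamma, had levels of 5.42, 5.6 and 5.48 with icilin and 6.0, 5.63 and 5.84 with vehicle. The icilin arrays were the lower ones, by -0.33 ± 0.11 (limma adjusted p = 0.34), opposite in sign to the IRG genes. Of 9 ligand genes limma called 0, with 2 lower at an unadjusted p under 0.05, and their median difference was -0.03. Ifngr1, the binding chain of the interferon gamma receptor, differed by -0.09 ± 0.07 (limma adjusted p = 0.699) and Ifngr2, its signalling chain, by 0.09 ± 0.09 (limma adjusted p = 0.756). The type I interferon receptor genes Ifnar1 and Ifnar2 each differed by 0.2 (limma adjusted p = 0.364 and 0.43), as did Il10rb, a chain shared with the interferon lambda receptor (limma adjusted p = 0.298). Among 6 receptor genes 0 were called and 3 were higher at an unadjusted p under 0.05. Of all 41345 probe sets, 4966 were under this unadjusted limit in either direction.

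Of 13 listed genes for kinases and transcription factors of the pathway, 12 had a probe set of their own, and limma called 0 of these. Before adjustment 4 were higher and 1 was lower at p under 0.05 (4966 of all 41345 probe sets, in either direction). Irf1, the interferon-induced factor that binds response elements of the ISRE kind, had levels of 9.5, 9.38 and 9.4 with icilin and 8.97, 8.95 and 8.9 with vehicle. The groups did not overlap, and the difference of 0.48 ± 0.07 (limma adjusted p = 0.0531), or 1.4-fold, fell short of the fold limit. Nlrc5, an activator of MHC class I genes named here after its value was seen, differed by 0.54 ± 0.1 (limma adjusted p = 0.0929), 1.46-fold, with groups apart. Jak2, a kinase of the interferon gamma receptor, went the other way, with 10.72, 10.72 and 10.71 with icilin and 11.12, 11.05 and 11.08 with vehicle (-0.37 ± 0.06, limma adjusted p = 0.0846). Its partner Jak1 differed by 0.05 (limma adjusted p = 0.841). Stat2 and Irf9, which carry the type I interferon signal to the nucleus, differed by 0.23 (limma adjusted p = 0.319) and 0.27 (limma adjusted p = 0.355).

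Among 8 genes that restrain interferon signalling, Socs3 fell, to 5.9, 5.86 and 5.95 with icilin against 6.68, 6.63 and 6.66 with vehicle (-0.75 ± 0.07, limma adjusted p = 0.0128), and 7 were not called. Socs1, the main brake on the interferon gamma receptor, was among those, at 0.11 ± 0.07 (limma adjusted p = 0.613). The call of Socs3 held with each array left out in turn.

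Other interferon-induced genes gave mixed values. The guanylate-binding proteins are GTPases that work beside IRG proteins at the vacuole. Of their 11 genes annotated on the array, the 10 with a probe set of their own were described. Among these 5 were called, all higher, with a list median of 0.63, against 0.237% of all probe sets called higher. Before adjustment 9 were higher and 0 lower at p under 0.05 (4966 of all 41345 probe sets, in either direction). Gbp10 rose by 1.32 ± 0.08 (limma adjusted p = 0.00546), Gbp4 by 1.01 ± 0.12 (limma adjusted p = 0.0273) and Gbp11 by 0.83 ± 0.13 (limma adjusted p = 0.0706). Gbp11 was dim, at brightness percentile 31.2. The call of Gbp10 held with each array left out, that of Gbp11 ended with any of the 6 left out (0.73 to 0.93, adjusted p 0.124 to 0.231), and that of Gbp4 ended without any 1 of the icilin replicates or without vehicle replicate 3 (0.9 to 1.09 over the 6 fits, highest adjusted p 0.143).

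Of 18 other interferon gamma targets, such as immunoproteasome and peptide transporter genes, limma called 0. The list median was 0.07. Before adjustment 4 were higher and 1 was lower at p under 0.05 (4966 of all 41345 probe sets, in either direction). The member with the smallest p was Nos2, the inducible nitric oxide synthase, at -0.48 ± 0.09 (limma adjusted p = 0.086). Of 24 type I interferon targets 2 fell and 22 were not called, with a median of 0.15. Before adjustment 6 were higher and 2 lower at p under 0.05. Among the higher ones Zbp1, a sensor of nucleic acids named here after its value was seen, differed by 0.44 ± 0.07 (limma adjusted p = 0.0608), 1.36-fold and so below the fold limit. The 2 that fell were the RNA sensor gene Ifih1 (-0.67 ± 0.1, limma adjusted p = 0.0608) and its regulator Dhx58 (-0.66 ± 0.1, limma adjusted p = 0.0599). Both calls ended with any 1 array left out (Ifih1 -0.72 to -0.58, adjusted p 0.136 to 0.218; Dhx58 -0.73 to -0.57, adjusted p 0.117 to 0.222).

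Loading of IRG effectors onto vacuoles is known to need the autophagy proteins that conjugate ATG8. Of 21 genes of this machinery and of autophagy initiation limma called 0. Before adjustment 3 were higher and 2 lower at p under 0.05 (4966 of all 41345 probe sets, in either direction). Atg9a, a membrane protein of early autophagosomes, had the smallest p, at -0.44 ± 0.07 (limma adjusted p = 0.0624). Over the 9 lists together, without the 8 IRG genes, 5 of 112 measured genes were called higher and 3 lower, with a median of 0.05. Over the whole array 0.629% of probe sets were called lower.

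**Figure D4:**
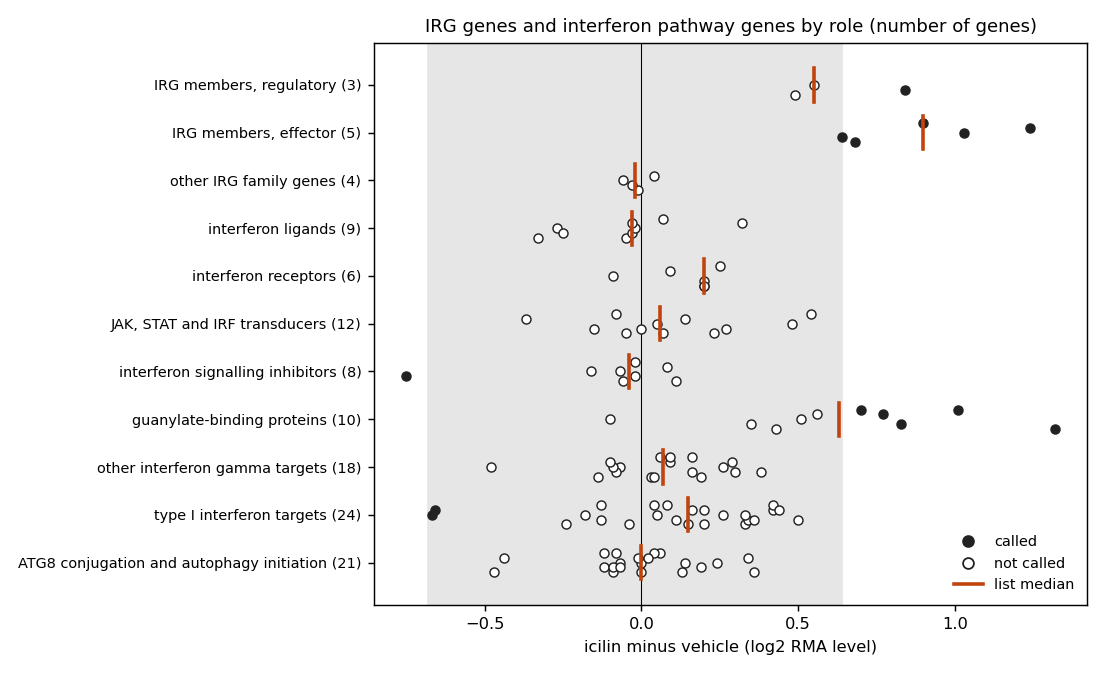
Icilin minus vehicle difference in log2 level (horizontal axis) of IRG genes and of interferon pathway genes, grouped by role, with the number of measured genes in brackets, called genes filled and the list median in red. Medians are 0.55 for regulatory and 0.9 for effector IRG genes, 0.63 for guanylate-binding proteins and between -0.04 and 0.2 for the remaining lists; the grey band spans -0.68 to 0.64, the 1st to 99th percentile of all probe sets.

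Genes with the profile most like that of the regulatory genes were sought among 11272 other named genes brighter than the median probe set, by Pearson's r over the 6 arrays with the mean profile of Irgm1, Irgm2 and Igtp. Irf1 had the highest value, r = 0.998, followed by Poldip2 (r = 0.998), Arglu1, Mmgt1 and Septin11 (the lowest of them r = 0.9955). The differences of these other 4 genes were small, 0.15 to 0.23, and not called. Among the effector genes r ran from 0.9278 for F830016B08Rik to 0.9833 for Iigp1. The 6 points form 2 groups of 3, so r is high for any gene whose groups are apart in the same direction, and it is given as a description only.

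The labelled cell type was checked against its markers. All 7 measured T cell marker genes, among them Cd4 and the Cd3 chains, were brighter than the median probe set, with mean log2 levels of 9.07 to 11.62 and 0 calls (1 higher at an unadjusted p under 0.05). Cells that also make IRG proteins could be present in a sort, so their markers were summed on the linear scale. For 6 B cell markers the sum was 177.3 to 188.6 with icilin and 156.2 to 160.6 with vehicle. One of the 6 was called, Ms4a1 (1.01 ± 0.1, limma adjusted p = 0.0199), whose call was lost when icilin replicate 2, or 3, or vehicle replicate 2 was left out (adjusted p 0.0457 to 0.111 over the 6 fits). For 12 myeloid and dendritic markers the sum was 171.2 to 176.8 with icilin and 167.0 to 171.8 with vehicle. For 6 CD8 and natural killer markers it was 161.8 to 199.6 with icilin and 152.2 to 167.9 with vehicle, and limma called 0 of these 18 genes. Before adjustment, at p under 0.05, 2 myeloid and dendritic markers were higher and 1 lower, and 1 CD8 and natural killer marker was higher and 2 lower. Of all 41345 probe sets, 4966 were under this unadjusted limit in either direction. Mpeg1, a macrophage gene, had the smallest p of the myeloid and dendritic markers. It read 4.7, 4.19 and 4.44 with icilin and 3.65, 3.94 and 3.48 with vehicle, with groups apart and a difference of 0.75 ± 0.17 (limma adjusted p = 0.156). It was called in the fit over genes (adjusted p = 0.0581) and in that with an intensity trend and robust variances (adjusted p = 0.0978). Over its other alternatives the adjusted p was 0.174 to 0.372. These other-cell markers had mean log2 levels of 2.9 to 6.67, and RMA values have no true 0. The part of such cells in the IRG values was not tested.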

How the data were processed

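RNA of 6 arrays was measured: 0.25 µg per sample with an integrity number of at least 8, labelled for the GeneChip whole-transcript assay. The deposited values are on a log2 scale and were made by the authors with RMA (background correction, normalization between arrays, summarising to probe sets), per the labels and the series design text; the version and genome build are not given in the sources used here. RMA makes array distributions alike (array medians 4.24 to 4.3), so a shift common to most genes would not show. No step was redone.

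Of 41345 probe sets, the array annotation names 1 gene for 23521, several for 1814 and none for 16010. All were fitted with limma 3.58.1 in R 4.3.3 (lmFit, eBayes, two-sided; degrees of freedom 4 residual and 2.23 prior) for the difference of icilin and vehicle, with Benjamini-Hochberg adjustment over all probe sets, so that probe sets with several symbols could be reported. A probe set is called at an adjusted p under 0.1 and at least 1.5-fold, the limits in the series design text; the study's own test (SAM) was not run. Errors are limma SE or SD of 3 arrays, and the number of arrays limits precision (median SE 0.114). For pathway lists each gene is its brightest probe set with 1 symbol. Named genes are all IRG probe sets, a fixed set of interferon receptors and transducers, up to 3 called genes of each list by size (or the smallest p), and the 5 most alike profiles. Members and lists were chosen with earlier results of these data known. RefSeq (GRCm38.p6) gave promoters, neighbours and synonyms. The fit was tested on simulated data. Tables and figures were made in Python 3.11.15. The alternatives tried were a block for the replicate number, a fit over 22180 genes, median centring, quantile normalization, leaving out dim probe sets, an intensity trend with robust variances, each array left out, and other call limits.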

Additional observations from a re-analysis of the deposited data

How the results depend on the processing

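Over the 12 alternative fits all IRG differences kept their sign and their median stayed between 0.72 and 0.79 (0.75 as reported), and the median over all probe sets stayed between 0.0 and 0.02. The number of IRG probe sets called was 7 as reported, 6 of 8 in the gene-level fit (1.4% of all genes called), 7 after median centring (0.825% of all probe sets), quantile normalization (0.873%), without dim probe sets (1.91%), with trend and robust variances (1.06%) and at an adjusted p below 0.05 (0.6%), 9 when the fold limit was dropped, and 2 to 6 with 1 array left out. Calls over all probe sets were 358 as reported, 649 with no fold limit and 109 to 207 with 1 array left out, where fewer arrays are fitted. Pathway genes called were 8 as reported, 15 with no fold limit, 4 at an adjusted p under 0.05 and 2 to 5 with 1 array left out. With the replicate number as a block, limma called 0 probe sets, 0 IRG probe sets and 0 pathway genes, with 4275, 9 and 33 at an unadjusted p under 0.05, and the smallest adjusted p of an IRG probe set was 0.142. Same-numbered arrays did not deviate together over all probe sets (r of deviations 0.0266, -0.0216 and -0.0237 for numbers 1, 2 and 3). Such values cannot decide whether a number names a mouse. The labels do not say so, and the numbers were not taken as pairs. With mice unmatched their spread stays in the error.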
